A study of Gallus gallus with 12 samples.

Results

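The genes described here build, load, fire and protect the chromosomal replication fork. They were chosen by symbol, as the genes named MCM2 to MCM10, ORC1 to ORC6, GINS1 to GINS4, RFC1 to RFC5, RPA1 to RPA3, the numbered POLA, POLD and POLE subunits, PRIM1, PRIM2 and 16 further factors from PCNA and CDC6 to CHAF1B. Of 24358 genes in the table, 47 carried such a symbol, 1 row each. All 47 were among the 15284 genes kept for the tests, which asked for at least 10 reads in at least 3 libraries. MCM7, GINS4, POLA2, POLD1 and POLD4 had no row under these names and were not analysed here. The rule used symbols only, but it was set with earlier results of these data known.

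The libraries were polyA-selected, stranded RNA sequencing libraries of White Leghorn chicken. Young DMC cells (DMC8, DMC9 and DMC10) were lines from retinas electroporated in ovo at embryonic day 3.5 with human MYCN and GFP in integrating piggyBac vectors, and had been in culture for under 4 weeks. Old DMC cells (DMC1, DMC2 and DMC3) carried the same transgenes and had been in culture for over 200 days. T58A DMC cells (DMC4, DMC5 and DMC6) carried MYCN-T58A, which lacks a phosphorylation site used in the degradation of MYCN, and had also been in culture for over 200 days. The titles add RPMI to DMC4 and DMC5 and DMEM to DMC6. E14 retina was the dissociated central retina of unelectroporated embryos at embryonic day 14, in 3 replicates, a tissue of many cell types. Each DMC library was 1 line grown from GFP positive retinal cells, and the labels do not say whether the 3 retina replicates came from separate embryos, so the p-values measure the spread between these samples.

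Each library held between 20984957 and 35088450 reads assigned to genes. Values below are normalised counts, which are reads scaled to a common library size with TMM factors. The human MYCN transgene stood between 61789 and 313643 in the 9 DMC libraries, lowest in DMC5, and at 0 in all E14 retina libraries. Of 7 cone lineage markers looked for, 5 were in the table (CRX and RCVRN were not found by name). Their summed count was 50537 to 69136 in young, 35805 to 53866 in old and 11436 to 65533 in T58A DMC cells, against 35956 to 40416 in E14 retina. These markers did not move together. OTX2 had 3829 to 17555 in DMC libraries, below the 25620 to 27318 of E14 retina. PDE6H had 2456 to 12712, above the 290 to 413 of E14 retina. ARR3 had 6817 to 10123 in young, 1009 to 1930 in old and 136 to 349 in T58A DMC cells, against 109 to 392. RXRG and THRB lay below E14 retina in DMC4 and DMC6 and above it in the other DMC libraries. PAX6 and ISL1, which mark progenitors and inner neurons, were at 42.4 or below in every DMC library, against 10999 to 13230 for PAX6 and 3524 to 5592 for ISL1 in E14 retina, and TFAP2A and POU4F1 were also lower in each DMC library than in E14 retina. ELAVL4, a neuronal marker, had 477 to 923 in young, 1784 to 2159 in old and 985 to 4858 in T58A DMC cells, against 2282 to 2822 in E14 retina, and was above E14 retina in DMC4 and DMC6. ONECUT1 had 222 to 268, 259 to 335 and 117 to 189 in young, old and T58A DMC cells, against 136 to 233 in E14 retina. The 4 pigment epithelium markers summed to 34974 to 67526, 39045 to 73137 and 23394 to 37990 in young, old and T58A DMC cells, against 178 to 218 in E14 retina, nearly all of it PMEL, while RPE65 was at 80.9 or below in every library. Endothelial markers summed to 1287 or less in each DMC library, against 2611 to 4539 in E14 retina. The part of these cell types in the results was not tested.

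Replication begins when the origin recognition complex (ORC), CDC6 and CDT1 load the MCM2-7 ring onto DNA, a step called licensing that geminin (GMNN) limits to once per cycle. The kinase CDC7 with its partner DBF4, together with CDC45 and the GINS complex, turns the loaded ring into a moving helicase. Polymerase alpha and primase then lay down primers, the RFC clamp loader places the PCNA ring, polymerases delta and epsilon copy the strands, and FEN1 and LIG1 join the lagging-strand pieces. In the retina these genes are known as marks of dividing progenitors, and many of them are targets of the E2F factors. In bulk RNA, more dividing cells and more transcript per cell cannot be told apart.

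Most of the replication genes were higher in DMC cells than in E14 retina, least so in the T58A lines DMC4 and DMC6. The initiation factors CDC7, CDC6, CDT1, CDC45 and ORC1 and the topoisomerase TOP2A led the list. The median log2 difference of the 47 genes from E14 retina was 0.22 in DMC4 and 0.56 in DMC6. It was 0.70 to 2.03 in the other DMC libraries. Over all genes it was -0.11 in DMC4 and -0.09 in DMC6. A gene was said to have risen or fallen where its log2 fold change was at least 1 in size and its limma adjusted p at most 0.05. In young DMC cells 28 of the 47 genes rose, against 20.5% of all genes tested, and 1 gene, POLE4, fell, against 23% of all genes. In old DMC cells 26 genes rose, against 20.3% of all genes, and POLE4 again fell, against 23.5%. In T58A DMC cells 20 genes rose, against 19.6% of all genes, and none fell, against 24.8%. The unadjusted p was under 0.05 for 31, 32 and 22 of the 47 genes in young, old and T58A DMC cells, beside 57.8%, 58.5% and 58.7% of all genes. In T58A DMC cells this share of the replication genes was below that of all genes. The 3 comparisons share their E14 retina libraries.

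The median log2 fold change over the 47 genes was 1.33 in young, 1.14 in old and 0.89 in T58A DMC cells, beside medians of -0.03, -0.05 and -0.10 over all genes. The 3 young libraries lay above all 3 E14 libraries for 41 of the 47 genes (35.6% of all genes), the old ones for 36 (33.4%) and the T58A ones for 24 (28.1%). In 19 genes the rise passed the test in all 3 comparisons. They were CDC6, CDC7, CDC45, CDT1, CHAF1A, CLSPN, FEN1, GINS1, LIG1, MCM4, MCM9, ORC1, ORC2, RFC1, RFC4, RPA1, RPA2, TOP2A and WDHD1. For 8 of them, CDC6, CDC7, CDC45, CDT1, CLSPN, ORC1, TOP2A and WDHD1, it also passed in each alternative processing tried. A further 16 genes passed in none of the 3 comparisons in the main fit. These joint counts were not made over all genes, so they have no background share beside them.

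**Figure D1:**
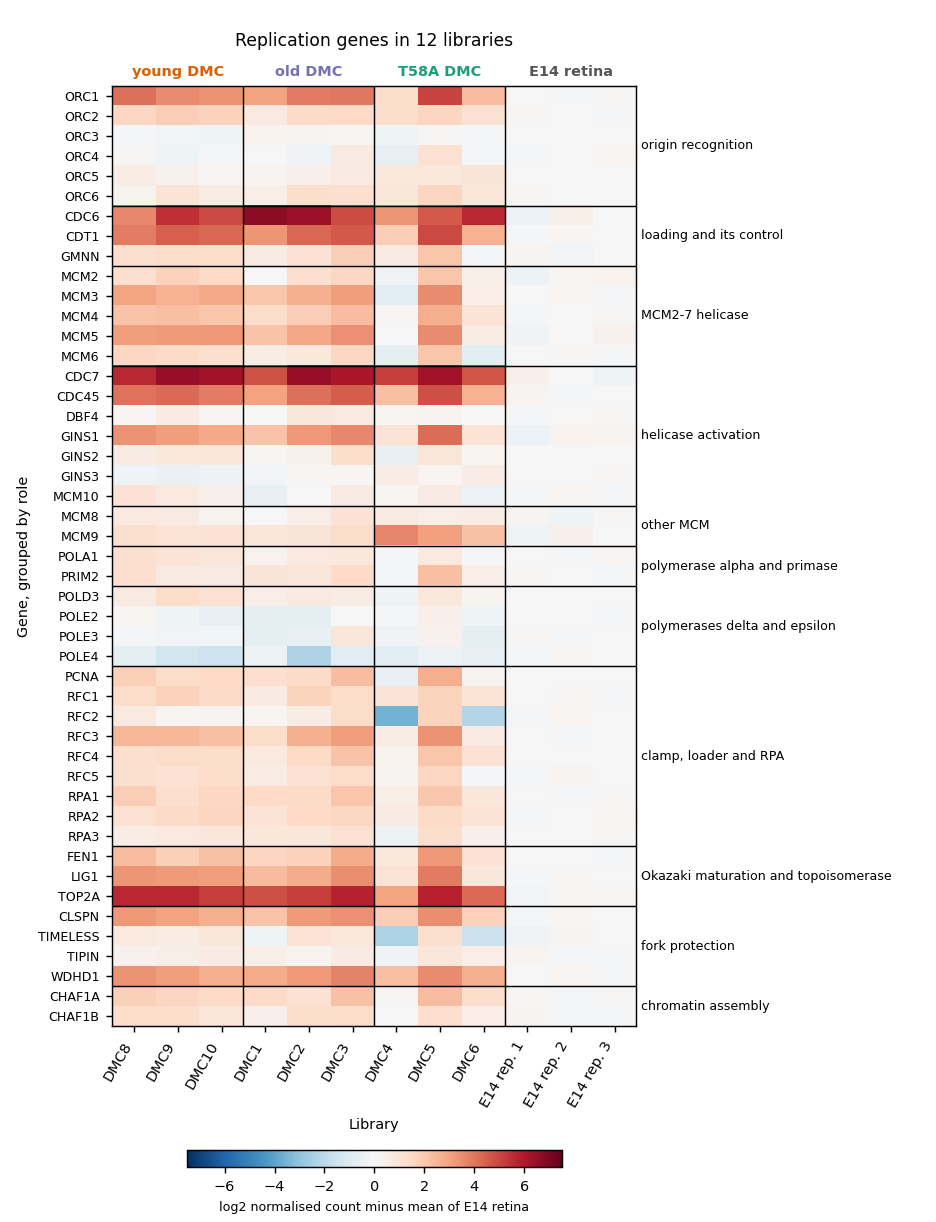
Colour shows the log2 normalised count of each of the 47 genes (rows, grouped by role) in each of the 12 libraries (columns), minus the gene's mean in E14 retina. CDC6, CDC7 and TOP2A are the reddest rows, with TOP2A palest in DMC4 (2.95), the polymerase epsilon subunits are pale or blue, and DMC4 and DMC6 are paler than DMC5 in most rows.

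The count of genes that rose depended on how libraries were scaled. Without TMM factors it was 19 in young, 18 in old and 15 in T58A DMC cells, and with the deposited values as they stand it was 21, 21 and 9. Over all 15284 genes tested, 3137, 3106 and 2999 rose in the main fit. Without TMM factors 2200, 2316 and 2424 of them rose, and with the deposited values as they stand 2489, 2830 and 2076. Without TMM factors the median log2 fold change over all genes was -0.45, -0.38 and -0.32 in young, old and T58A DMC cells, and the share of higher among all changed genes was 32.1% in place of 47.2% in young DMC cells, 34.0% in place of 46.4% in old DMC cells and 35.8% in place of 44.1% in T58A DMC cells. Leaving out 1 library at a time gave 23 to 31 changed replication genes in young, 19 to 29 in old and 13 to 24 in T58A DMC cells. Over all genes it gave 5245 to 7095, 5231 to 7165 and 5385 to 7076 changed genes.

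**Figure D2:**
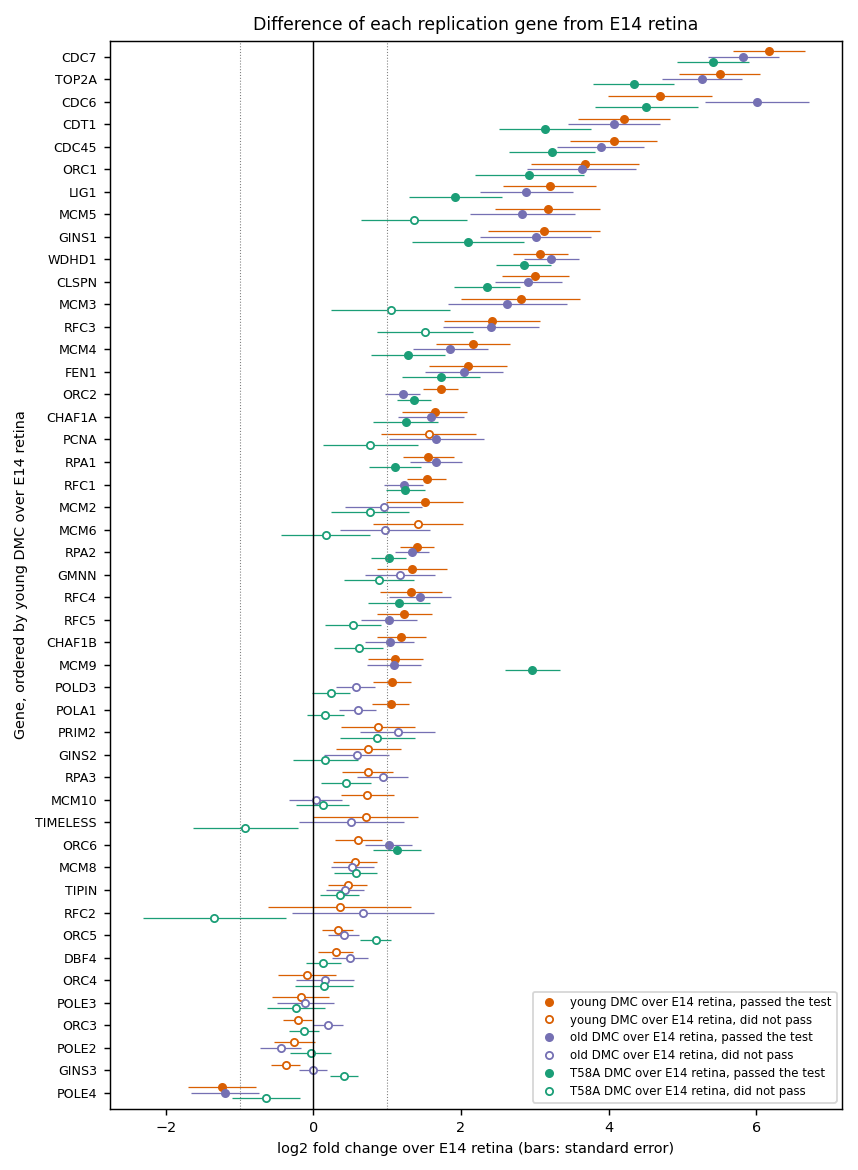
Log2 fold change over E14 retina (x axis) of each replication gene (y axis, ordered by young DMC) in young (orange), old (purple) and T58A DMC cells (green). Bars are standard errors, filled points passed the test and open points did not. CDC7 heads the order at 6.18, 5.83 and 5.42, POLE4 ends it at -1.24 in young DMC cells, and the T58A point of MCM9 (2.96) stands far right of the other two.

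In the origin recognition complex ORC1 and ORC2 rose in all 3 DMC groups. ORC1 (ENSGALG00000010623), the ATPase subunit that varies most through the cell cycle, had normalised counts of 478, 329 and 283 in young, 228, 418 and 425 in old and 72.4, 925 and 137 in T58A DMC cells, against 27.5, 24.7 and 28.2 in E14 retina. No DMC library overlapped E14 retina, and the log2 fold changes were 3.68, 3.63 and 2.93 (standard error 0.74 each, adjusted p = 0.00154, 0.00169 and 0.00602 in young, old and T58A). ORC2, a core subunit, had log2 fold changes of 1.72, 1.21 and 1.36 (standard error 0.23).

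The other 4 ORC subunits differed less. ORC6, which helps recruit the MCM ring, rose in old (1.02) and T58A DMC cells (1.13, standard error 0.32 each) and had 0.60 in young DMC cells (adjusted p = 0.133). ORC5 had log2 fold changes of 0.33, 0.41 and 0.84 in young, old and T58A DMC cells, the last with an adjusted p of 0.00544 but short of the fold required. ORC4 had -0.09, 0.16 and 0.14. ORC3 had 445, 416 and 391 in young DMC cells, all below the 499, 469 and 483 of E14 retina, while its 592, 558 and 517 in old DMC cells all lay above them. Neither difference passed the test (log2 fold changes of -0.21 and 0.20, standard error 0.20). Young libraries lay below all E14 libraries for 38.1% of all genes, and old ones above them for 33.4%.

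The licensing factors showed some of the greatest differences. CDC6 (ENSGALG00000051645), the ATPase that joins ORC to recruit CDT1 and the MCM ring, had 89.5, 331 and 225 in young, 779, 613 and 220 in old and 70.2, 179 and 363 in T58A DMC cells, against 4.44, 8.81 and 6.36 in E14 retina. E14 retina was close to no expression of CDC6, with 5 reads in its lowest library. The log2 fold changes were 4.69, 6.01 and 4.51 (standard error 0.70). The DMC libraries spanned a wide range within each group, and the highest values, in DMC1 and DMC2, were in old lines.

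CDT1 (ENSGALG00000013784), which brings the MCM ring to ORC and CDC6, had 1336, 2079 and 1819 in young, 925, 1799 and 2245 in old and 335, 2806 and 571 in T58A DMC cells, against 82.6, 101 and 91.8 in E14 retina. It rose by 4.21, 4.07 and 3.14 on the log2 scale (standard error 0.62, adjusted p = 0.000211, 0.000271 and 0.00144). GMNN, which encodes the CDT1 inhibitor geminin, rose less, by 1.33 in young DMC cells (standard error 0.48, adjusted p = 0.0348), and had 1.17 in old and 0.89 in T58A DMC cells without passing the test. In old DMC cells GMNN passed under some alternatives, among them the fit without T58A DMC cells and that of only the 6 libraries compared. The inhibitor thus showed smaller values than the factor it binds in each comparison. The difference between the 2 genes was not tested.

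**Figure D3:**
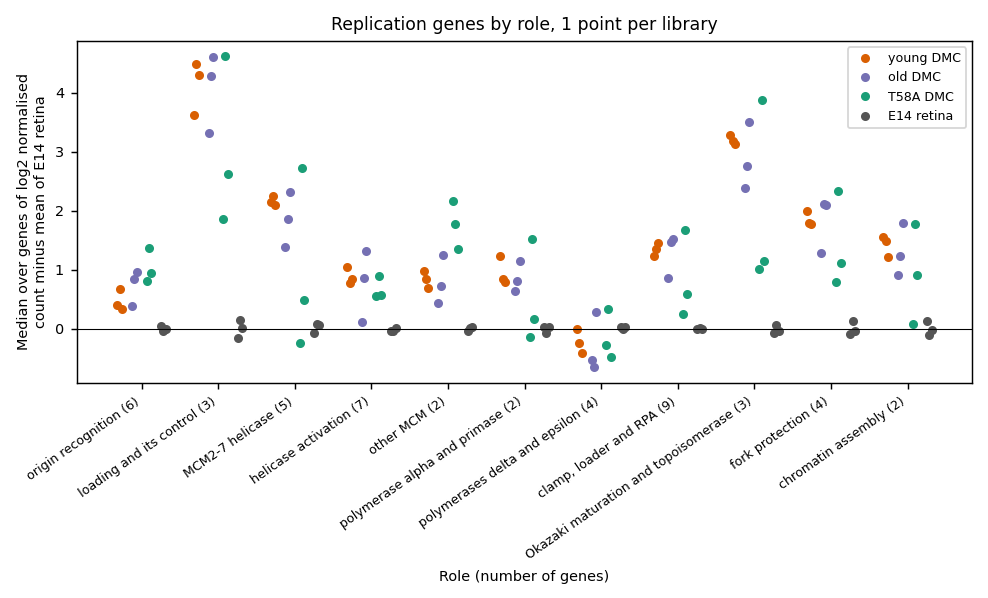
Median over the genes of each role (x axis, number of genes in parentheses) of the log2 normalised count minus the E14 retina mean, 1 point per library, for young, old and T58A DMC cells and E14 retina from left to right. Loading factors and Okazaki maturation genes lie highest in young and old DMC cells, the delta and epsilon polymerase subunits lie between -0.65 and 0.34 in all DMC libraries, and in the T58A lines the DMC5 point lies far above the others for most roles.

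All 5 MCM2-7 genes in the table were higher in young DMC cells than in E14 retina without overlap, as 35.6% of all genes were. MCM5 (ENSGALG00000012546) had 3241, 3346 and 3477 in young, 1633, 2831 and 3997 in old and 363, 4402 and 548 in T58A DMC cells, against 309, 358 and 463 in E14 retina. Its log2 fold changes were 3.17 in young and 2.83 in old DMC cells (standard error 0.71), both past the test, and 1.36 in T58A DMC cells (adjusted p = 0.128). In the T58A group DMC5 was the highest of all libraries, and DMC4 lay within the range of E14 retina.

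MCM3 rose by 2.81 in young and 2.63 in old DMC cells (standard error 0.81), and MCM4 by 2.16, 1.86 and 1.28 in young, old and T58A DMC cells (standard error 0.50). The T58A call of MCM4 had an adjusted p of 0.0497 and was lost when any 1 of 11 libraries was left out. MCM2 rose in young DMC cells (1.51, standard error 0.53) and had 0.95 in old and 0.77 in T58A DMC cells. MCM6 had 1.42 in young DMC cells (adjusted p = 0.0694), 0.97 in old and 0.16 in T58A DMC cells. In young DMC cells MCM6 passed the test without DMC5, without the T58A group, and with only the 6 libraries compared. The 5 genes encode parts of the same ring, and their log2 fold changes in young DMC cells spanned 1.42 to 3.17.

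The helicase activators split into 2 sets. CDC7 (ENSGALG00000006051), the kinase that phosphorylates the loaded ring, had 1768, 3251 and 2683 in young, 952, 3220 and 2434 in old and 1270, 2721 and 919 in T58A DMC cells, against 43.5, 32.6 and 26.4 in E14 retina. With log2 fold changes of 6.18, 5.83 and 5.42 (standard error 0.49, adjusted p = 4.19e-06, 5.41e-06 and 7.9e-06) it had the greatest rise of the 47 genes in young and T58A DMC cells, and was second to CDC6 in old DMC cells. In young DMC cells the fold change was 72.3-fold.

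DBF4, an activating partner of CDC7, had 1251, 1813 and 1313 in young, 1128, 2128 and 1861 in old and 1294, 1357 and 1193 in T58A DMC cells, against 1115, 1141 and 1250 in E14 retina. Its log2 fold changes of 0.30, 0.50 and 0.13 (standard error 0.24) did not pass the test, and in young DMC cells the sign turned under 3 of the other scalings. DBF4B, a related gene that the choice by symbol left out, rose by 1.81, 1.68 and 1.15 in young, old and T58A DMC cells (standard error 0.40). CDC7 and DBF4 thus differed in their contrast with E14 retina, while DBF4B rose, though by less than CDC7. These differences between genes were not tested.

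CDC45, a subunit of the active helicase, had 1391, 1581 and 1197 in young, 654, 1463 and 1911 in old and 389, 2373 and 504 in T58A DMC cells, against 92.3, 73.1 and 80 in E14 retina, a rise of 4.07, 3.89 and 3.24 (standard error 0.59). Of the 3 GINS genes in the table only GINS1 rose, by 3.13, 3.01 and 2.09 (standard error 0.76), its T58A call being lost without DMC5 or any E14 library, and with the deposited values scaled to equal totals GINS3 passed as lower in young DMC cells. GINS2 had 0.74, 0.59 and 0.16 and GINS3 -0.38, -0.0033 and 0.41, although the proteins form a complex with 1 copy of each. MCM10, which helps the helicase start, had 0.73 in young, 0.03 in old and 0.13 in T58A DMC cells, none past the test.

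GINS3 (ENSGALG00000031209) showed an order of its own. Its 658, 580 and 633 in young DMC cells lay below the 789, 781 and 862 of E14 retina, as ORC3, POLE3 and POLE4 did, while its 1189, 883 and 1200 in T58A DMC cells lay above them. Young libraries lay below all E14 libraries for 38.1% of all genes, and T58A ones above them for 28.1%. GINS3 had 699, 878 and 860 in old DMC cells, overlapping E14 retina. T58A DMC cells over young DMC cells gave a log2 fold change of 0.79 (standard error 0.19, adjusted p = 0.0324), short of the fold required. T58A and young DMC cells differ in both MYCN variant and time in culture, which cannot be told apart.

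MCM8 and MCM9 encode a separate helicase that works in recombination. MCM9 (ENSGALG00000014883) had 231, 203 and 215 in young, 189, 194 and 264 in old and 1247, 850 and 454 in T58A DMC cells, against 79.9, 128 and 96.4 in E14 retina. All DMC libraries lay above E14 retina, and all T58A lines lay above the other DMC lines. It rose by 1.11, 1.09 and 2.96 over E14 retina in young, old and T58A DMC cells (standard error 0.37, adjusted p = 0.0261, 0.028 and 6.86e-05). MCM8, its partner, had 0.56, 0.52 and 0.57 and passed the test in none of the 3.

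POLA1, the catalytic subunit of polymerase alpha, had 3001, 2694 and 2478 in young DMC cells, against 1299, 1211 and 1448 in E14 retina, and rose by 1.05 (standard error 0.25, adjusted p = 0.00426). It had 0.60 in old and 0.16 in T58A DMC cells. PRIM2, the large primase subunit, had 0.88, 1.14 and 0.87 (standard error 0.50), and did not pass in any comparison of the main fit. In old DMC cells PRIM2 passed without DMC4, DMC5 or the T58A group, and with only the 6 libraries compared. POLD3, an accessory subunit of polymerase delta, rose by 1.07 in young DMC cells and had 0.57 and 0.23 in old and T58A DMC cells (standard error 0.26).

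The accessory subunits of polymerase epsilon did not rise. POLE2 had log2 fold changes of -0.26, -0.44 and -0.04 and POLE3 of -0.18, -0.11 and -0.24. POLE4 (ENSGALG00000031679), a small histone-fold subunit, had 203, 129 and 113 in young, 259, 66.7 and 186 in old and 187, 246 and 222 in T58A DMC cells, against 307, 368 and 347 in E14 retina. Every DMC library lay below every E14 library, a pattern not counted over all genes. Young libraries alone lay so for 38.1% of all genes. It fell by 1.24 in young and by 1.20 in old DMC cells (standard error 0.46, adjusted p = 0.0402 and 0.0455) and had -0.65 in T58A DMC cells without passing the test. The call in old DMC cells was lost when any 1 of 8 libraries was left out. It was also lost under 5 other alternatives, among them the replicate block and only the 6 libraries compared.

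**Figure D4:**
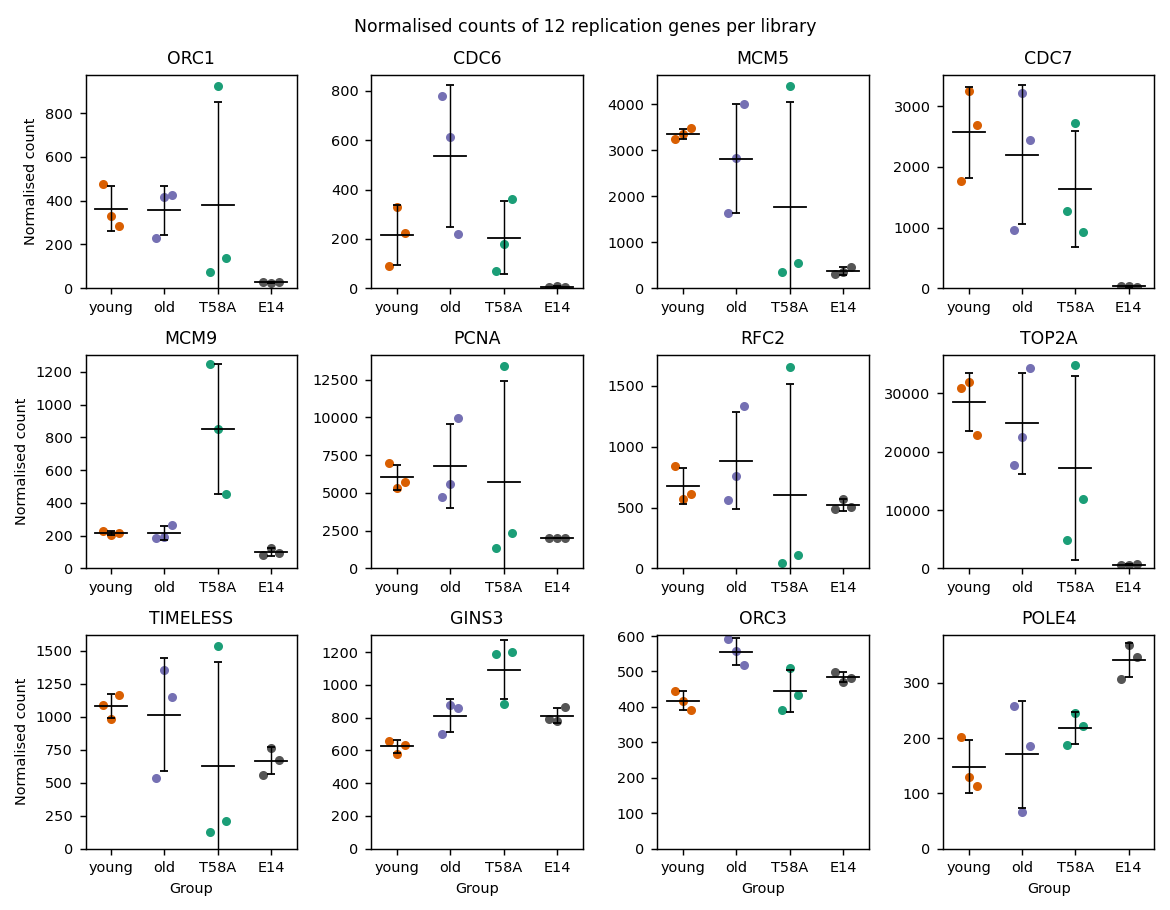
Normalised counts (y axis, from 0, own scale per panel) of 12 replication genes in young, old and T58A DMC cells and E14 retina, 1 point per library, with the mean (line) and SD (bar, drawn down to 0 at most). ORC1, CDC6, CDC7 and TOP2A are near 0 in E14 retina, MCM9 is highest in T58A DMC cells, and in MCM5, PCNA, RFC2 and TIMELESS the T58A points split into DMC5 at the top and DMC4 and DMC6 at the bottom.

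Among the clamp, its loader and the single-strand binding protein RPA, the rises were moderate. PCNA (ENSGALG00000029292), the sliding clamp, had 6975, 5332 and 5742 in young, 4754, 5589 and 9949 in old and 1319, 13422 and 2331 in T58A DMC cells, against 2012, 2044 and 2017 in E14 retina. Although young and E14 libraries did not overlap, the log2 fold change of 1.56 (standard error 0.64) had an adjusted p of 0.0596. In old DMC cells PCNA rose by 1.66 (adjusted p = 0.0464), a call that was lost when any 1 of 10 libraries was left out. The standard error comes from all 12 libraries. PCNA passed the test in young DMC cells when DMC4 or DMC5, or the T58A group as a whole, was left out, and with only the 6 libraries compared.

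Of the loader genes, RFC3 rose the most, by 2.42 and 2.40 in young and old DMC cells (standard error 0.65), with 1.51 in T58A DMC cells (adjusted p = 0.0703). RFC1, the large subunit, rose by 1.53, 1.22 and 1.24 (standard error 0.27) and RFC4 by 1.32, 1.44 and 1.16 (standard error 0.42). RFC5 rose by 1.23 in young and 1.02 in old DMC cells and had 0.54 in T58A DMC cells. RFC2, the remaining subunit, had 844, 573 and 611 in young and 565, 760 and 1334 in old DMC cells, against 486, 573 and 506 in E14 retina. The T58A lines were far apart, with 44.6, 1658 and 114. Its log2 fold changes were 0.36 in young, 0.67 in old and -1.34 in T58A DMC cells (standard error 0.97). RFC2 was thus the only loader gene that passed the test in no comparison.

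RPA1 and RPA2, the larger RPA subunits, rose in each DMC group. RPA1 had log2 fold changes of 1.56, 1.66 and 1.11 (standard error 0.35) and RPA2 of 1.40, 1.34 and 1.02 (standard error 0.23). RPA3, the smallest subunit, had 0.73, 0.94 and 0.44 (standard error 0.34). In old DMC cells its adjusted p was 0.0381, but the fold fell short of the one required.

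All 3 genes of lagging-strand maturation and topology rose in each DMC group. TOP2A (ENSGALG00000003922), which untangles sister DNA and is abundant in cycling cells, had 30851, 31907 and 22839 in young, 17642, 22520 and 34375 in old and 4814, 34921 and 11854 in T58A DMC cells, against 538, 654 and 682 in E14 retina. The log2 fold changes were 5.50, 5.26 and 4.34 (standard error 0.54, adjusted p = 1.46e-05, 1.94e-05 and 6.79e-05). LIG1, the ligase that seals Okazaki fragments, rose by 3.20, 2.88 and 1.92 (standard error 0.63), and FEN1, the flap nuclease, by 2.09, 2.04 and 1.73 (standard error 0.53).

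The fork protection genes differed within the group. CLSPN, the claspin adaptor of the replication checkpoint, rose by 3.01, 2.91 and 2.35 (standard error 0.45). WDHD1, which ties polymerase alpha to the helicase, had 572, 474 and 362 in young, 371, 501 and 717 in old and 265, 636 and 366 in T58A DMC cells, against 52.4, 59.9 and 50 in E14 retina, and rose by 3.07, 3.22 and 2.85 (standard error 0.37). TIMELESS and TIPIN, which form a dimer at the fork, passed the test in no comparison. TIMELESS had 0.71, 0.51 and -0.92 (standard error 0.71), and TIPIN 0.46, 0.42 and 0.35 (standard error 0.26).

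CHAF1A and CHAF1B, subunits of the factor that places histones behind the fork, rose in young DMC cells by 1.64 and 1.19. CHAF1A also rose by 1.59 in old and 1.25 in T58A DMC cells (standard error 0.44). CHAF1B rose by 1.03 in old DMC cells and had 0.61 in T58A DMC cells (standard error 0.33).

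Not every call was equally stable. In young DMC cells the calls of GMNN, MCM2, MCM9, POLA1, POLD3, POLE4, RFC4 and RFC5 were lost when a young or an E14 library was left out, POLD3 without DMC9 alone. Those of CHAF1A, CHAF1B and RPA2 were lost under other scalings only, and the remaining 18 held in each alternative. In old DMC cells 15 of 27 calls held in each alternative, and CHAF1B, MCM3, MCM9, ORC6, PCNA, POLE4, RFC1, RFC4 and RFC5 were lost without 1 or more of the libraries, MCM3 and RFC4 without DMC3 alone and RFC1 without DMC2 alone. In T58A DMC cells 9 of 20 calls held in each alternative. Calls that held in each alternative were not counted over all genes. ORC4, with -0.09 in young DMC cells, turned sign without DMC9.

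The proliferation markers MKI67 and CDK1 were also higher in every DMC library than in E14 retina. MKI67, a marker of cycling cells found by its RefSeq gene identifier, had 9854, 10046 and 6371 in young, 4082, 12376 and 10224 in old and 3261, 13126 and 3348 in T58A DMC cells, against 190, 226 and 232 in E14 retina. CDK1, the mitotic kinase, had 3377, 4483 and 3482 in young, 1652, 3437 and 5810 in old and 841, 6461 and 1739 in T58A DMC cells, against 142, 185 and 202 in E14 retina. The part that the share of cycling cells plays in the results above was not tested.

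Time in culture was addressed by old over young DMC cells. No line was sampled at both times, so time in culture and differences between the lines cannot be told apart. None of the 47 genes passed the limma test, where 0.196% of all genes did, and none passed with voom weights. ORC2 alone had an unadjusted p under 0.05 (log2 fold change -0.51, standard error 0.23). Of all 15284 genes 1428 had such a p, a larger share than among the 47. The median over the 47 genes was -0.06, and the values ran from -0.70 for MCM10 to 1.32 for CDC6 (standard error 0.70). CDC6 was highest in DMC1 and DMC2, but DMC3 lay within the range of young DMC cells. For ORC3 and GINS3 the old libraries lay above all young ones, by 0.41 and 0.38 on the log2 scale (8.88% of all genes lay so), and for ORC2, POLA1 and POLD3 they lay below them (8.03% of all genes). Neither count exceeded the share over all genes.

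Old lines were more spread than young lines. The median SD of the log2 value over the 47 genes was 0.53 in old and 0.21 in young DMC cells, beside 0.43 and 0.33 over all genes. DMC1 was the lowest of the old lines for MCM2 to MCM6, CDT1, TOP2A, CDC7 and CDC45.

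The effect of the T58A substitution was addressed by T58A over old DMC cells, both over 200 days in culture. The groups hold different lines, so the substitution and other differences between the lines cannot be told apart. None of the 47 genes passed the limma test with all libraries, where 0.0393% of all genes did, and none passed with voom weights. MCM9 and GINS3 had an unadjusted p under 0.05. Of all 15284 genes 3016 had such a p, a larger share than among the 47. MCM9 had 1247, 850 and 454 in T58A DMC cells, against 189, 194 and 264 in old DMC cells, without overlap, and a log2 fold change of 1.87 (standard error 0.37, adjusted p = 0.0762). It passed without DMC5 (1.81) and without DMC6 (2.27), and in no other alternative tried. With only the 6 libraries compared its limma adjusted p was 0.447. Against young DMC cells, where 6.17% of all genes passed, MCM9 was the only replication gene that did, with 1.85 (adjusted p = 0.0197). That call was lost without DMC8, DMC9 or DMC10 (values of 1.90, 1.81 and 1.85), and with only the 6 libraries compared. In this comparison MYCN variant and time in culture cannot be told apart.

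The lack of calls went with a wide spread among the T58A lines. The median SD of the log2 value over the 47 genes was 0.91 in T58A DMC cells, beside 0.64 over all genes, and T58A was the most spread of the 4 groups for 36 of the 47 genes (59.3% of all genes). DMC5 lay above both other T58A lines for 42 of the 47 genes (36.8% of all genes). It was the highest of all 9 DMC libraries for 26 genes (11.7% of all genes), while DMC4 was the lowest for 28 (22.2% of all genes). The exceptions to DMC5 being above both were MCM9, GINS3, MCM8, ORC5 and CDC6.

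RFC2 (ENSGALG00000029449) showed the widest gap. It had 44.6 in DMC4, 1658 in DMC5 and 114 in DMC6, against 565 to 1334 in old DMC cells, and E14 retina had 486 to 573. DMC5 was thus 37.2 times DMC4, and DMC4 and DMC6 lay below every other library. MCM3 had 121, 2561 and 311 in DMC4, DMC5 and DMC6, against 945 to 1930 in old DMC cells.

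TIMELESS had 128, 1538 and 212 in the same order, against 535 to 1358 in old DMC cells, and E14 retina had 559 to 764. DMC4 and DMC6 were again the lowest of the 12 libraries. At the other end, DBF4 had 1294, 1357 and 1193 and ORC5 746, 744 and 839 in the 3 T58A lines, so that these genes hardly differed between the lines. Over the 47 genes the median ratio of DMC5 to DMC4 was 2.76 and that of DMC5 to DMC6 was 2.10.

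**Figure D5:**
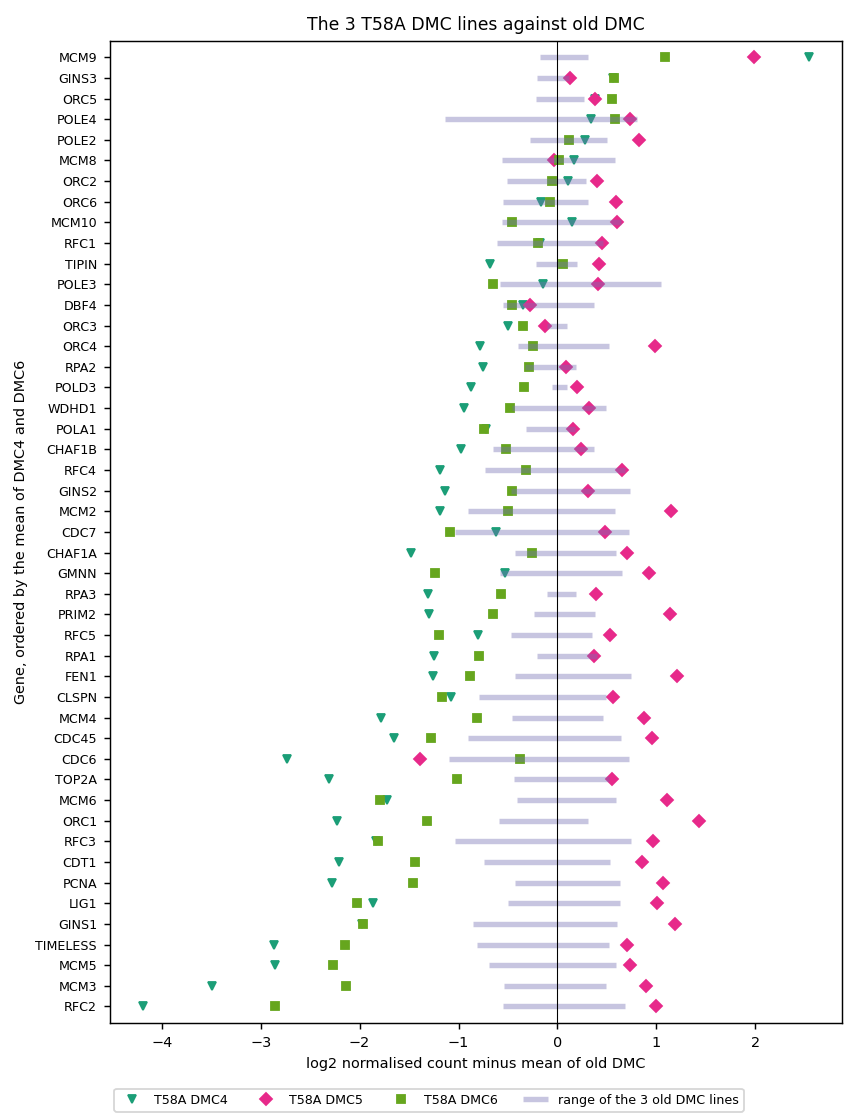
Log2 normalised count minus the mean of old DMC cells (x axis) of each replication gene (y axis) in the T58A lines DMC4, DMC5 and DMC6, with a bar for the range of the 3 old lines. DMC4 and DMC6 lie left of the old range for 24 genes (21.9% of all genes) and reach -4.19 (RFC2, DMC4), while DMC5 lies within or right of the old range for most genes, and MCM9 has all 3 T58A points right of the old range.

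Some other measures also separated DMC5 from DMC4 and DMC6. MKI67 and CDK1 were higher in DMC5, as given above. The cone lineage gene RXRG had 1710, 31908 and 1312 in DMC4, DMC5 and DMC6, against 13563 to 25836 in old DMC cells, and THRB had 430, 7572 and 370, against 2074 to 4832. OTX2 was also highest in DMC5, with 3829, 17555 and 6657. PDE6H differed less, with 5118, 8363 and 6801, and ARR3 was lowest in DMC5, with 349, 136 and 150. The MYCN transgene was lower in DMC5, at 61789, than in DMC4 and DMC6, at 196370 and 200360. In the titles DMC4 and DMC5 carry RPMI and DMC6 carries DMEM, while the methods of the study name RPMI medium for the cultures. The part of any of these in the replication genes was not tested.

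Without DMC5, 18 of the 47 genes were lower in the remaining T58A lines than in old DMC cells past the test (9.34% of all genes were called lower, 17.1% in either direction), and MCM9 was higher. The genes with the largest log2 fold changes were RFC2 (-3.52, standard error 0.43), MCM3 (-2.82, standard error 0.39), MCM5 (-2.56, standard error 0.34), TIMELESS (-2.51, standard error 0.37), GINS1 (-1.97, standard error 0.49), LIG1 (-1.95, standard error 0.28) and PCNA (-1.87, standard error 0.31). MCM4, MCM6, CDC45, CDT1, ORC1, TOP2A, CLSPN, FEN1, RFC3, RFC5 and RPA1 made up the rest. MCM9 had 1.81 (standard error 0.42). The median over the 47 genes was -0.85, beside -0.03 over all genes. DMC5 was singled out after its values had been seen, so these counts describe DMC4 and DMC6 and not the T58A substitution.

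Against E14 retina, the T58A group without DMC5 had 13 replication genes past the test in place of 20. RFC2 (-2.85, standard error 0.43) and TIMELESS (-1.99, standard error 0.37) were then lower than in E14 retina, where 25.7% of all genes were, and 11 genes were higher, beside 20.7% of all genes, a share near that background. DMC5 was singled out after the values of these genes had been seen. These calls thus describe DMC4 and DMC6 and are not an independent test. The calls of CHAF1A, FEN1, GINS1, LIG1, MCM4, ORC6, RFC4, RPA1 and RPA2 were lost without DMC5. Leaving out replicate 1 of E14 retina also gave 13, all of them higher, where 17.9% of all genes were. CDC6, CDC7, CDC45, CDT1, CLSPN, MCM9, ORC1, TOP2A and WDHD1 rose in T58A DMC cells in each of these alternatives.

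A list of 28 other replication genes had 23 in the table. In young DMC cells 14 of the 23 rose and 1 fell, beside 20.5% and 23% of all genes. In old DMC cells 13 rose and 1 fell, beside 20.3% and 23.5%, and in T58A DMC cells 13 rose and 2 fell, beside 19.6% and 24.8%. The median log2 fold changes were 1.74, 1.67 and 1.15, beside -0.03, -0.05 and -0.10 over all genes. Between DMC groups none of the 23 passed the test. Of all genes 0.196% passed in old over young, 0.0393% in T58A over old and 6.17% in T58A over young DMC cells. DTL, which targets CDT1 for degradation in S phase, had 1586, 1132 and 1147 in young, 850, 1982 and 1838 in old and 481, 2391 and 686 in T58A DMC cells, against 26.6, 18.5 and 31.8 in E14 retina. Its log2 fold changes were 5.61, 5.81 and 5.15 (standard error 0.53), of the size seen for CDC7 and TOP2A.

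DNA2, a nuclease of Okazaki fragments, rose by 5.30, 4.58 and 3.34 (standard error 0.80), and TICRR, the treslin factor that loads CDC45, by 2.37, 2.30 and 2.34 (standard error 0.34). POLE, the catalytic subunit of polymerase epsilon, had 2575, 2666 and 2081 in young DMC cells, against 680, 828 and 676 in E14 retina, and rose by 1.74 (standard error 0.66, adjusted p = 0.0452). It had 1.67 in old and -0.04 in T58A DMC cells without passing. TOP2B, a topoisomerase also present in cells that have left the cycle, fell in each DMC group, by 1.46, 1.45 and 1.36 (standard error 0.24), while its relative TOP2A rose. TOPBP1, a checkpoint and initiation factor, fell by 1.10 in T58A DMC cells.

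PRIM1 and POLD2 had rows without a symbol and were found by their RefSeq gene identifiers. PRIM1, the catalytic primase subunit, rose by 1.26 in young DMC cells (standard error 0.49, adjusted p = 0.0487) and had 0.81 and 0.49 in old and T58A DMC cells. POLD2, an accessory subunit of polymerase delta, rose by 2.14, 1.93 and 1.41 (standard error 0.46). Both were thus higher in young DMC cells, as POLA1 and POLD3 were.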

How the data were processed

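The authors prepared TruSeq stranded libraries, aligned reads with nf-core/rnaseq, counted properly paired fragments per gene with featureCounts 2.0.0 (build galGal6), and deposited signal values, the counts divided by TMM factors. Of 205632 values above 0, all were whole numbers (tolerance 1e-07) divided by 1 of 12 constants, the TMM factors of the 12 libraries recomputed here, but in only 8.36% of cases the divisor belonged to the same library. Each value was therefore turned back into reads with its constant and rescaled to a common library size with the library's own factor. No negative binomial test was run on the recovered reads, and voom weights on them were an alternative.

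Genes with at least 10 reads in at least 3 libraries (15284) were fitted with limma 3.58.1 in R 4.3.3 (eBayes with trend) on log2(normalised count + 1), with 4 groups of 3 libraries. Fold changes are on that scale, which understates changes of low genes. P-values were adjusted by Benjamini-Hochberg over all genes. The fit was run on counts simulated for the young DMC and E14 retina libraries only, so it was not tested at the spread of the T58A lines. The text names all 47 genes. Levels were not compared between genes, since no transcript length was used. The members, lists and rules were chosen with earlier results of these data known. T58A over young DMC cells and the fit without T58A DMC cells were added after the data had been seen. Promoter motifs and sequences were not analysed here. One result on a retinal marker gene is not reported here.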

Additional observations from a re-analysis of the deposited data

Results flagged for a closer look

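GINS3 was above E14 retina in all 3 T58A DMC lines and below it in all 3 young DMC lines. The log2 fold change of T58A over young DMC cells was 0.79 (limma adjusted p = 0.0324), short of the fold required. T58A and young DMC cells differ in both MYCN variant and time in culture, which cannot be told apart. ORC3 was above E14 retina in all 3 old DMC lines and below it in all 3 young DMC lines, and old over young DMC cells gave 0.41 (adjusted p = 0.559). Neither gene passed the test against E14 retina in the main fit. Over all genes, young libraries lay below E14 retina for 38.1%, and old and T58A ones above it for 33.4% and 28.1%. The joint patterns were not counted over all genes. MCM9 was the replication gene that passed the test between DMC groups, with 1.85 in T58A over young DMC cells (adjusted p = 0.0197). It was higher in 3 of 3 T58A lines than in each young line, and the call was lost without DMC8, DMC9 or DMC10.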

How the results depend on the processing

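The replication genes changed over E14 retina were 29, 27 and 20 in young, old and T58A DMC cells. The first 2 counts stayed within 1.5 times under each alternative, while that of T58A DMC cells was 9 with the deposited values as they stand, 13 with only the 6 libraries compared, and 13 to 24 when 1 library was left out. In T58A over old DMC cells, 0 to 19 replication genes passed when 1 library was left out, 19 of them without DMC5, and in T58A over young DMC cells 0 to 22 in place of 1, 2 with the deposited values scaled to equal totals and 0 with only 6 libraries. The changed genes in all for old over young DMC cells were 30, but 19 with the filter of at least 50 reads, 1 with only 6 libraries, 176 without the T58A libraries, and 0 to 98 with 1 library left out. Those for T58A over old DMC cells were 6, but 105 with the deposited values as they stand, 13 with a pseudocount of 10, 10 with a filter of 1 read in 1 library, 35 with only 6 libraries, and 0 to 2610 with 1 library left out. The cause was not tested.

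Of 2585 alternative values of 108 single-gene results, 14 turned sign, 206 were lost and 20 gained. In young over E14 retina, DBF4 had -0.021 with the deposited values taken unchanged, -0.20 after these were scaled to equal totals and -0.12 without TMM factors. ORC5 had -0.027 and -0.091, and RFC2 -0.15 and -0.066, under the last 2 of these. ORC4 ran from -0.19 to 0.021 with 1 library left out. In T58A over E14 retina, MCM6 had -0.21, -0.072 and -0.068 under the same 3 scalings and ran from -0.79 to 0.66 with 1 library left out, MCM3 from -0.19 to 2.01 and PCNA from -0.21 to 1.47, each lowest without DMC5.

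With the replicate block, 28 replication genes, all higher, and 7164 genes in all passed in old over E14 retina. Whether the shared numbers 1 to 3 pair the libraries is not given by the labels. Same-numbered deviations from the group means correlated at -0.02, 0.03 and 0.01 over 15284 genes, and other-numbered ones at -0.046 to 0.024. With 3 libraries per group these values cannot settle whether the libraries were paired. The promoter motif searches and their window alternative were not run. With 3 libraries per group, the wide spread of the T58A lines limits what their comparisons can detect.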
